A study of Mus musculus with 4 samples.

Results

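The 8 genes described here encode enzymes and a transporter that handle arginine, nitric oxide and itaconate. They are Nos2, Gch1, Slc7a2, Ass1, Asl, Arg1, Arg2 and Irg1, an older symbol of Acod1. They were selected by gene symbol from a table of 38087 genes, and all 8 matched 1 row each and passed the filter on low counts. The members were chosen from results of this same contrast, so their values are given as a description with no p-value, and counts of calls among them stand only beside those over all genes.

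RNA was sequenced from 4 mouse samples of the C57BL/6 strain at postnatal week 20. Both samples labelled Becn1-M-KO (genotype Becn1 KO, here KO) come from tumour-bearing mice in which Becn1 is deleted in myeloid cells, and the series names them B cell lymphomas, although their tissue label is also cervical lymph node. Both WT samples are labelled wild-type cervical lymph nodes. Genotype and tumour therefore cannot be told apart, the labels do not name the Cre driver, and nothing says that the samples of a group come from separate animals, so a p-value here covers only how far these libraries scatter, possibly for technical reasons.

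Several facts of the libraries bear on the values below. Depth was 15604247 and 20067004 reads in KO replicates 1 and 2, against 16141605 and 17874699 reads in WT replicates 1 and 2. WT replicate 1 stood apart: the salivary gene Spt1 took 32.0% of its reads, and the B cell and T cell marker lists summed to 17.3 and 5.20 counts per 1000000 reads (CPM) of the library total there, against 1750 and 658 CPM in WT replicate 2. The labelled node was thus poorly represented in WT replicate 1, so the fold change of each of the 8 genes is also given against WT replicate 2 alone. Epithelial markers were high in both WT libraries, however. A gland and other epithelium list of 11 genes summed to 1466 and 1300 CPM there, against 13.7 and 21.4 CPM in KO samples. A comparison with WT replicate 2 alone therefore does not take out gland RNA. Becn1, the targeted gene, had 49.5 and 53.3 CPM in KO samples and 54.8 and 63.4 CPM in WT samples, a level that does not check a deletion confined to myeloid cells. The Y-linked gene Eif2s3y had 767 and 1083 reads in KO samples and 1 and 6 reads in WT samples, so sex went with genotype as well.

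Inducible nitric oxide synthase, encoded by Nos2, splits arginine into nitric oxide and citrulline, and it needs the cofactor tetrahydrobiopterin, whose synthesis starts with GTP cyclohydrolase (Gch1). Arginine enters macrophages through the cationic transporter CAT2 (Slc7a2), and citrulline is turned back into arginine by argininosuccinate synthetase (Ass1) and argininosuccinate lyase (Asl). The arginases Arg1, in the cytosol, and Arg2, in mitochondria, compete for the same arginine and make ornithine and urea. Irg1 makes itaconate from cis-aconitate of the citrate cycle. In mouse macrophages Nos2 and Irg1 are classically induced by interferon-gamma and bacterial products, and Arg1 by interleukin-4.

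Promoter sequences are shown for Irg1 and Gch1, a large and a small difference between the groups. The RefSeq table (GRCm38.p6) held a promoter for 3 of the 8 genes, each from 250 bases before the start site to 50 after it. The Irg1 promoter lies at chr14:103046762-103047061 on the plus strand and the Gch1 promoter at chr14:47189364-47189663 on the minus strand, printed 5′ to 3′ with matched motif letters in capitals.
Irg1: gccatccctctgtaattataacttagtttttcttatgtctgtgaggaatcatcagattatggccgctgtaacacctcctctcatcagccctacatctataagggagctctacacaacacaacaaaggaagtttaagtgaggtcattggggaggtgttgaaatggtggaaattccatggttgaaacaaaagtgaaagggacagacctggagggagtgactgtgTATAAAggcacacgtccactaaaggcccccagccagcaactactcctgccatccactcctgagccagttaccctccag
Gch1: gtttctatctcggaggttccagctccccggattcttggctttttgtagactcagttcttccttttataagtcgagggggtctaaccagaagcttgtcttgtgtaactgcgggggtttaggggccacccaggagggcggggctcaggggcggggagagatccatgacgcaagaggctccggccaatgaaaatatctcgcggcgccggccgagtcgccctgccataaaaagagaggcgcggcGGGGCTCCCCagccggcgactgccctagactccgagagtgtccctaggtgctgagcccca
The capitals in Irg1 are a TATA box (TATAAA, searched on the printed strand), which starts 28 bases before the start site. Of 32841 promoters in the table, 8.32% hold those letters on that strand. The capitals in Gch1 match the NF-kB consensus, searched on both strands, and start 10 bases before the start site; 4.51% of promoters hold it. The interferon-stimulated response element and the GAS element (TTCNNNGAA), searched on both strands and held by 3.44% and 8.3% of promoters, had no match in these windows, and the Ass1 promoter held none of the 4 motifs. These matches are a description of letters only.

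The transcript of the inducible synthase stood far higher in the KO samples. Nos2, on chromosome 11 from 78920787 to 78960254 (mm10), had 7397 and 7618 reads in KO samples, against 10 and 56 reads in WT samples. Scaled to library size with trimmed mean of M-values (TMM) factors, its level was 372 and 294 CPM in KO samples and 1.21 and 2.67 CPM in WT samples. Both KO libraries lay far above both WT libraries, with means of 333 ± 55.5 CPM in KO samples and 1.94 ± 1.04 CPM in WT samples (SD, n = 2 each). The fitted log2 fold change, KO over WT, was 7.38 (SE 0.60, n = 2 samples per group), the 10th highest of 20695 genes tested, and 6.96 against WT replicate 2 alone. In bulk tissue more cells of a type and more RNA per cell cannot be told apart.

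Gch1, on chromosome 14 from 47153895 to 47189413, had 367 and 418 reads in KO samples and 57 and 217 reads in WT samples. Its level was 18.5 and 16.1 CPM in KO samples, against 6.88 and 10.4 CPM in WT samples. The groups did not overlap, and the log2 fold change was 1.0 (SE 0.30), or 0.74 against WT replicate 2 alone. The cofactor enzyme thus differed about 2-fold (1.99), against 167-fold for the synthase it serves.

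Slc7a2, which carries arginine into the cell, lies on chromosome 8 from 40862396 to 40922308. It had 358 and 322 reads in KO samples and 101 and 67 reads in WT samples. In CPM this was 18.0 and 12.4 in KO samples and 12.2 and 3.20 in WT samples, so that KO replicate 2 and WT replicate 1 were nearly level. The log2 fold change of 1.01 (SE 0.72) was 2.24 against WT replicate 2 alone and 0.29 against WT replicate 1 alone, so its size rests on which WT library is used. The long non-coding gene AC116511.1 overlaps 3252 bases of Slc7a2 on the other strand, with 1 to 12 reads per library.

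The enzymes that return citrulline to arginine did not move as a pair. Ass1, on chromosome 2 from 31470207 to 31520672, had 628 and 789 reads in KO samples and 67 and 280 reads in WT samples, or 31.6 and 30.4 CPM in KO samples and 8.09 and 13.4 CPM in WT samples. Both KO values exceeded both WT values, with a log2 fold change of 1.52 (SE 0.32) and of 1.22 against WT replicate 2 alone. Asl, on chromosome 5 from 130011258 to 130025132, had 541 and 666 reads in KO samples and 435 and 571 reads in WT samples. Its levels were 27.2 and 25.7 CPM in KO samples and 52.5 and 27.2 CPM in WT samples, so WT replicate 1 alone stood apart, and WT replicate 2 (27.24 CPM) lay just above KO replicate 1 (27.21 CPM). The log2 fold change of −0.59 (SE 0.38) was −0.04 against WT replicate 2 alone, and with library totals in place of TMM it took the other sign (0.20).

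The 2 arginase genes differed between the groups in opposite directions. Arg1, on chromosome 10 from 24915208 to 24927470, had 10 and 18 reads in KO samples against 1193 and 2035 reads in WT samples. The level was 0.503 and 0.694 CPM in KO samples and 144 and 97.1 CPM in WT samples. Both KO libraries were near the 0.192 and 0.149 CPM that 3 reads make of their totals, and both WT libraries were high. The means were 0.598 ± 0.135 CPM in KO samples and 121 ± 33.2 CPM in WT samples (SD, n = 2 each). The log2 fold change was −7.63 (SE 0.42), a level 198-fold lower in KO samples and the 124th lowest value of all genes tested; against WT replicate 2 alone it was −7.30. Arg1 is well known as a gene of alternatively activated macrophages and of liver.

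Arg2, on chromosome 12 from 79130777 to 79156301, had 149 and 201 reads in KO samples and 31 and 91 reads in WT samples. It stood at 7.50 and 7.74 CPM in KO samples and 3.74 and 4.34 CPM in WT samples, with replicates of each group close together. The log2 fold change was 0.91 (SE 0.28), and 0.82 against WT replicate 2 alone. Its last 285 bases overlap Vti1b on the other strand, which had 440 to 1084 reads per library, so some reads may be shared.

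Because the 2 arginases are made from separate genes, their shares were read without any scaling. Arg1 made up 6.29% (95% exact Clopper-Pearson interval 3.06 to 11.3) and 8.22% (4.94 to 12.7) of arginase reads in KO samples, against 97.5% (96.4 to 98.3) and 95.7% (94.8 to 96.5) in WT samples. The main arginase transcript by reads was thus Arg2 in both KO libraries and Arg1 in both WT libraries. The intervals cover counting error only, and not reads that Arg2 may share with Vti1b. To show that the 2 genes can be told apart by sequence, a window of 72 coding bases around their longest shared run is printed 5′ to 3′ from GENCODE M21 transcripts, with bases that match between them in capitals.
Arg1: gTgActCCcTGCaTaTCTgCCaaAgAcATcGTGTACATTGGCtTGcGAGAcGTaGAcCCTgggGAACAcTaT
Arg2: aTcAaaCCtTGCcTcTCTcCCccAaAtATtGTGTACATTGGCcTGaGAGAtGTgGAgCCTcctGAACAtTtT
The window covers coding bases 493 to 564 of Arg1 and 550 to 621 of Arg2, and 49 of its 72 bases match. The longest identical run in the whole coding sequence was 12 bases. For Nos2 the longest run shared with Nos1 and with Nos3 was 20 and 22 bases, and for Slc7a2 the longest shared with Slc7a1 and with Slc7a3 was 23 and 15 bases.

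Nos2 and Arg1 draw on the same substrate, and their read ratio turned over between the groups. There were 740 and 423 Nos2 reads per Arg1 read in KO samples. In WT samples there were 119 and 36.3 Arg1 reads per Nos2 read. The ratio is taken within a library and does not depend on scaling.

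Irg1, on chromosome 14 from 103046977 to 103056573, had 1871 and 2300 reads in KO samples, against 3 and 21 reads in WT samples. In CPM these were 94.1 and 88.6 in KO samples and 0.362 and 1.0 in WT samples. The KO libraries were close to each other and far above both WT libraries, with means of 91.4 ± 3.88 CPM in KO samples and 0.682 ± 0.452 CPM in WT samples (SD, n = 2 each). The log2 fold change was 6.93 (SE 0.54), the 17th highest of all genes tested, and 6.51 against WT replicate 2 alone. Against WT replicate 1, which had 3 reads, the ratio of KO to WT was 252 with a 95% exact Poisson interval of 86.3 to 1223.

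**Figure D1:**
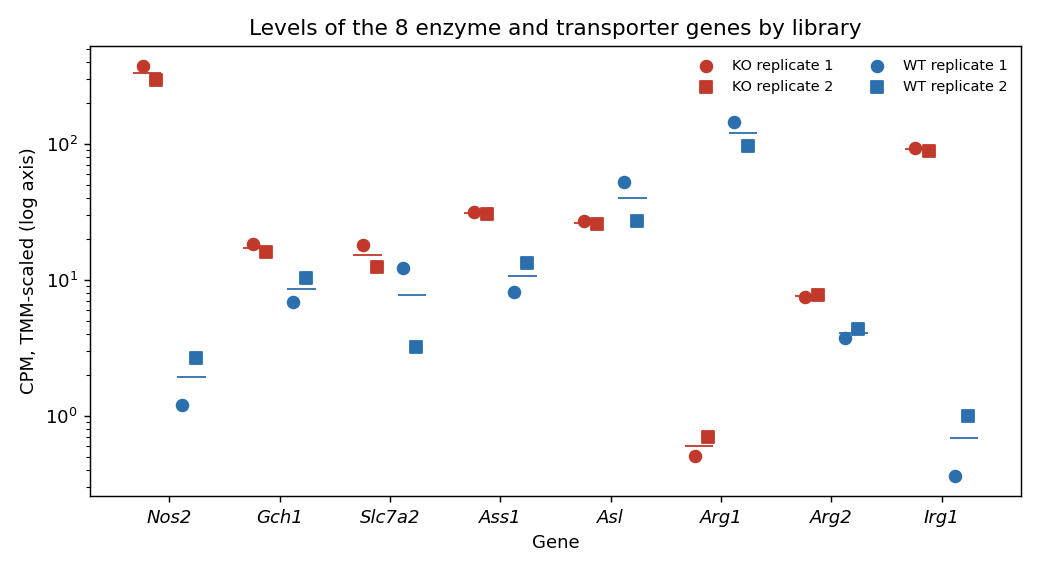
TMM-scaled CPM (log axis) of the 8 genes in each library, KO samples in red to the left and WT samples in blue to the right; circles are replicate 1, squares replicate 2 and lines the group means. Nos2 and Irg1 are high in KO samples, Arg1 is high in WT samples, and the other 5 genes differ less between the groups.

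**Figure D2:**
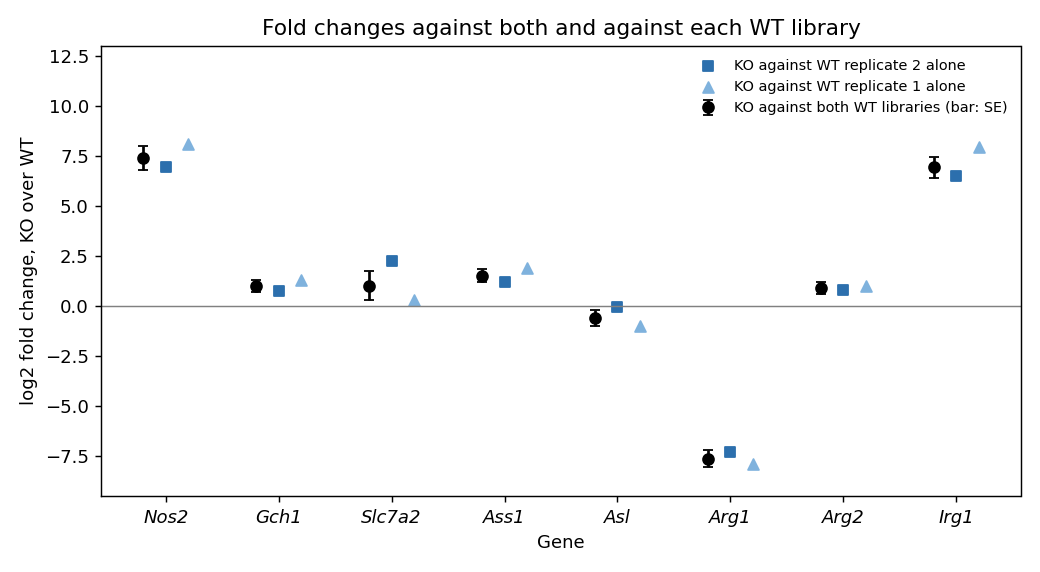
Fitted log2 fold change, KO over WT, of each gene against both WT libraries (circles with SE), against WT replicate 2 alone (squares) and against WT replicate 1 alone (triangles). Nos2 spans 6.96 to 8.08, Irg1 6.51 to 7.94 (with only 3 reads in WT replicate 1) and Arg1 −7.88 to −7.30, while Slc7a2 spans 0.29 to 2.24 and Asl −1.01 to −0.04.

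Across the 8 genes, both KO values lay above both WT values for 6 and below them for 2 (Arg1 and Asl). Over all genes tested, 34.3% lay above in that way and 33.3% below. By edgeR's quasi-likelihood test with a Benjamini-Hochberg adjusted p below 0.05, 2 of the 8 were called higher (Nos2 and Irg1) where 1.04% of all genes were, and 1 was called lower (Arg1) where 2.18% of all genes were. Against WT replicate 2 alone, 6 were called higher beside 20.9% of all genes and 1 lower beside 22.8%. That last comparison holds 1 WT library, which is assumed to vary like the KO pair. The members were chosen from this contrast, so nothing is read from any of these counts.

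The authors' deposited table of comparisons lists 5 of the 8 genes among its 5511. In the authors' deposited table the log2 fold change was 8.36 for Nos2, 8.43 for Irg1, 1.97 for Arg2, 1.65 for Ass1 and −8.25 for Arg1. Asl, Gch1 and Slc7a2 are not in that list. From the authors' deposited log2 values, the group means of these differed by −0.57, 1.74 and 1.39. All 8 signs matched those of the fit.

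Divided by exon length, the levels give an order of the genes within a group. The values are TMM-scaled CPM per kilobase of merged GENCODE M21 exons, and reads in introns may be included because the deposited counts refer to whole gene spans. In KO samples Nos2 led with 84.3 and 66.5, followed by Irg1 with 35.9 and 33.8 and Ass1 with 13.1 and 12.6. Asl (5.63 and 5.31) and Arg2 (5.25 and 5.42) were not separated by their spread, and Gch1 (2.95 and 2.58), Slc7a2 (1.97 and 1.36) and Arg1 (0.226 and 0.311) came after. In WT samples Arg1 led with 64.7 and 43.6. Asl (10.9 and 5.64) and Ass1 (3.35 and 5.53) followed without overlapping, whereas Ass1 and Arg2 (2.62 and 3.04) lay next to each other. Gch1 (1.10 and 1.66) and Slc7a2 (1.34 and 0.350) overlapped in WT samples, and Nos2 (0.274 and 0.605) and Irg1 (0.138 and 0.382) overlapped each other and the range of Slc7a2. The lowest of the 8 was Irg1 in WT replicate 1 and Slc7a2 in WT replicate 2.

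Profiles over the 4 libraries were compared as log2 CPM centred on each gene's mean, by the root mean square difference, among 14680 other protein-coding genes. Nos2 lay nearest to Ptgs2 (0.092), the inducible cyclooxygenase, and Saa3 (0.193), an acute phase protein. Irg1 lay nearest to Eif2s3y (0.180) and Saa3 (0.221), and at 0.248 from Nos2. Eif2s3y sits on the Y chromosome, so a profile over 4 libraries holds little more than the group difference and the gap between the WT libraries. Arg1 lay nearest to Slc10a5 (0.072) and Liph (0.134), which had 0 and 1 and 7 and 12 reads in KO samples.

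Among the smaller differences, Ass1 lay nearest to Rgs5 (0.018) and Zc3h12a (0.025), which encodes the RNase Regnase-1. Gch1 lay nearest to Arf2 (0.026) and Hip1 (0.030), and Arg2 to Mapk1ip1l (0.022) and Ttll8 (0.023). Asl lay nearest to Pex16 (0.014) and Zdhhc9 (0.019), and Slc7a2 to Sfrp4 (0.127) and Lrrc34 (0.128), both with few reads (1 to 28 per library). Within the 8, Gch1 and Arg2 were the closest pair (0.168).

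Markers of cells that could carry these transcripts differed between the groups, not all in 1 direction. The monocyte and macrophage list, 14 genes, summed to 1778 and 1693 CPM of the library total in KO samples and to 131 and 1345 CPM in WT samples. Of the 14, 2 were called higher, where 1.04% of all genes were, and none of the list was at 0 in a library. The log2 fold changes of Lyz2 (−1.18), Cd163 (−2.58), Marco (−1.83) and Siglec1 (−1.83) were negative, and against WT replicate 2 alone 10 of the 14 were called higher and 4 lower. Per 1000 reads of that list, Nos2 had 267 and 224 reads in KO samples, against 4.74 and 2.33 reads in WT samples. Irg1 had 67.4 and 67.7 reads per 1000 in KO samples and 1.42 and 0.874 in WT samples. Both genes were thus higher in KO samples also relative to these markers, by a ratio taken within each library. Gch1 (13.2 and 12.3 in KO samples, 27.0 and 9.03 in WT samples), Ass1 (22.6 and 23.2 in KO samples, 31.8 and 11.7 in WT samples), Slc7a2 (12.9 and 9.48 in KO samples, 47.9 and 2.79 in WT samples) and Arg2 (5.37 and 5.92 in KO samples, 14.7 and 3.79 in WT samples) lay between the WT libraries by this measure. Lyz2 gave 11896 of the 24033 list reads in WT replicate 2, against 2598 of 27747 and 3779 of 33982 in KO samples. The place of these 4 genes relative to WT replicate 2 thus leans on that marker.

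The neutrophil list, 12 genes, summed to 93.2 and 105 CPM of the library total in KO samples and 4.28 and 33.1 CPM in WT samples, with 6 markers at 0 in WT replicate 1, among them Ly6g, S100a8 and S100a9. Csf3r gave most of the list's reads in KO samples (1167 and 1602, against 24 and 189 in WT samples), so the sums rest largely on that gene. Of 8 tested genes 7 had positive log2 fold changes, with Cxcr2 at only 0.09, and Ltf had a negative one (−2.99). The dendritic cell list, 8 genes, summed to 525 and 501 CPM in KO samples and 10.7 and 276 CPM in WT samples. Of the 8, 1 was called higher (Itgax), where 1.04% of all genes were. Siglech (−0.93) and Cd209a (−2.34) had negative log2 fold changes. The list median was 0.80, but 0.06 against WT replicate 2 alone. The part of either cell type in the Nos2 and Irg1 values was not tested.

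Epithelial markers, like Arg1, were lower in both KO libraries than in both WT libraries, as were 33.3% of all genes tested. The gland and other epithelium list, 11 genes, summed to 13.7 and 21.4 CPM of the library total in KO samples and 1466 and 1300 CPM in WT samples. All 11 had lower KO values, and 4 (Krt18, Krt14, Epcam and Cdh1) were called lower, where 2.18% of all genes were. Krt8, Aqp5 and Cldn3 had 0 reads in KO replicate 1. Per 1000 reads of this list, Arg1 had 46.7 (95% exact Poisson interval 22.4 to 85.9) and 41.9 (24.8 to 66.2) reads in KO samples, against 50.4 (47.6 to 53.4) and 87.5 (83.8 to 91.4) in WT samples. Both KO intervals include the value of WT replicate 1, and neither includes that of WT replicate 2. However, the intervals cover the counting error of Arg1 alone and take the list reads as fixed. In KO samples these were only 214 and 430 reads, with 139 and 227 of them from Epcam. The KO ratios thus rest largely on 1 marker, and nothing is read from which WT value they include. Per 1000 reads of the monocyte and macrophage list Arg1 had 0.360 and 0.530 reads in KO samples and 566 and 84.7 in WT samples. How much of the Arg1 signal came from gland tissue in the WT samples was not tested.

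**Figure D3:**
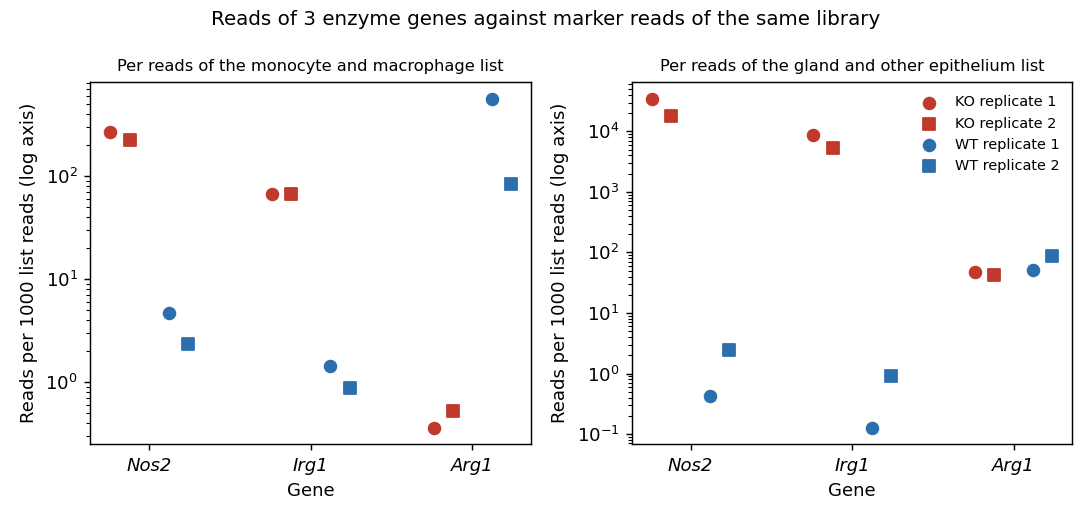
Reads of Nos2, Irg1 and Arg1 per 1000 reads of the monocyte and macrophage list (left) and of the gland and other epithelium list (right), on log axes; KO libraries are red and WT libraries blue. Arg1 per epithelial read is 41.9 to 46.7 in KO samples and 50.4 to 87.5 in WT samples, while Nos2 and Irg1 per macrophage read are far higher in KO samples.

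The other genes of these pathways, 115 in 8 lists without the 8 genes above, were tested in the same fit. Of 108 tested, 4 rose in KO samples (Il1b, Ifng, Cebpb and Adc) and 1 fell (Slc7a4), where 1.04% and 2.18% of all genes were called. The median log2 fold change over the 108 was −0.13, beside 0.01 over all genes tested. Against WT replicate 2 alone, 30 pathway genes were called higher and 34 lower among those tested in that comparison, where 20.9% and 22.8% of all genes were. The lone WT library is there assumed to vary like the KO pair. Medians against WT replicate 2 alone are given over the genes tested against both WT libraries. With library totals in place of TMM none passed and the median of all genes moved to 0.60; the medians of the tetrahydrobiopterin and ornithine lists then took the other sign (0.20 and 0.14), but relative to all genes they were −0.40 and −0.46, and that of the citrate cycle list was −0.64.

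The list of interferon-gamma and NF-kB inducers held the largest increases. All 17 genes had positive values with a median of 1.26, and 2 of 17 passed. Il1b, which encodes interleukin-1 beta, stood at 77.9 and 63.6 CPM in KO samples and 2.05 and 1.91 CPM in WT samples (log2 fold change 5.16, SE 0.26, edgeR adjusted p = 0.0370). Ifng, interferon-gamma itself, had 199 and 248 reads in KO samples and 1 and 8 in WT samples (5.06, SE 0.53, edgeR adjusted p = 0.0456). Il1b overlaps Gm14047 on the other strand, which had 2 to 101 reads. Against WT replicate 2 alone the median was 0.85.

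Genes of the interleukin-4 and alternative activation list differed in both directions. Over 12 tested genes the median was −0.86, with 5 positive and 7 negative values, and the median was −0.79 against WT replicate 2 alone, but against WT replicate 1 alone it took the other sign (0.49). Cebpb, a transcription factor that acts on the Arg1 and Nos2 promoters, rose to 52.9 and 53.2 CPM in KO samples, against 14.4 and 10.3 CPM in WT samples (2.11, SE 0.26, edgeR adjusted p = 0.0483; 0.0502 with DESeq2 size factors). Its span overlaps Tmem189 on the other strand, which had 523 to 2669 reads. Retnla, a marker of alternative activation, had 14 and 7 reads in KO samples and 26 and 82 in WT samples (−2.88, edgeR adjusted p = 0.0817), and Klf4 had a value of −1.18 (edgeR adjusted p = 0.0910). Chi3l3 had 0 reads in WT replicate 1, and Il13 had 0 in KO replicate 1 and in WT replicate 1.

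In the list of arginine transport, urea cycle and arginine use, 1 of 11 tested genes rose and 1 fell, with a median of 0.26 (0.58 against WT replicate 2 alone). Adc, the file's symbol for Azin2, an antizyme inhibitor of polyamine metabolism, had 20.9 and 21.0 CPM in KO samples and 4.47 and 5.49 CPM in WT samples (2.07, SE 0.24, edgeR adjusted p = 0.0475). Slc7a4, a relative of the arginine transporters, had 25 and 45 reads in KO samples and 550 and 576 in WT samples (−4.96, SE 0.60, edgeR adjusted p = 0.0481; −4.17 against WT replicate 2 alone). It overlaps P2rx6 on the other strand, which had 48 and 75 reads in KO samples and 623 and 625 in WT samples, so the reads of Slc7a4 may not be its own. Gatm, which uses arginine for creatine synthesis, had a value of 1.43 (edgeR adjusted p = 0.0875).

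Genes of ornithine, polyamine and proline metabolism were mostly lower in KO samples without passing the test. In the ornithine, polyamine and proline list 12 of 17 values were negative, the median was −0.58 (−0.25 against WT replicate 2 alone) and 0 of 17 passed in either direction. Pycr1, an enzyme of proline synthesis, stood at 7.80 and 7.82 CPM in KO samples and 184 and 65.5 CPM in WT samples (−3.99, SE 0.62, edgeR adjusted p = 0.0610; −3.06 against WT replicate 2 alone). Oat, ornithine aminotransferase, had 86.8 and 85.2 CPM in KO samples and 253 and 209 CPM in WT samples (−1.43, edgeR adjusted p = 0.0722), and Amd1, of polyamine synthesis, had a value of −1.01 (edgeR adjusted p = 0.0887).

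The citrate cycle, which supplies the substrate of Irg1, gave negative values for 21 of 23 tested genes, with a median of −0.85 and 0 passing. The median was −0.16 against WT replicate 2 alone. Suclg2, a succinyl-CoA ligase subunit, had a value of −1.22 (SE 0.26, edgeR adjusted p = 0.0871), Clybl, which takes part in itaconate breakdown, of −1.60 (edgeR adjusted p = 0.127) and Idh2 of −1.55 (edgeR adjusted p = 0.152). Against WT replicate 2 alone these were −0.94 for Suclg2, −0.96 for Clybl and −0.80 for Idh2. The list of the NRF2 and ATF3 response, which itaconate is known to engage, had a median of 1.02 (0.85 against WT replicate 2 alone) with 5 of 9 values positive and 0 passing. The 4 negative values were those of Gclc (−0.72), Nqo1 (−0.14), Gclm (−0.10) and Keap1 (−0.09). Nfe2l2, which encodes NRF2, stood at 113 CPM in both KO samples and 55.3 and 56.4 CPM in WT samples (1.02, SE 0.21, edgeR adjusted p = 0.0829). Slc7a11, the cystine transporter, had 79.9 and 80.9 CPM in KO samples and 3.02 and 14.0 CPM in WT samples (3.21, SE 0.80, edgeR adjusted p = 0.109; 2.52 against WT replicate 2 alone), and Txnrd1 had a value of 1.04 (edgeR adjusted p = 0.123).

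The remaining genes of nitric oxide and cofactor metabolism gave no call in the fit on both WT libraries. In the nitric oxide pathway list 0 of 13 passed and the median was 0.05, with the other sign against WT replicate 2 alone (−0.13). Ddah2, of the dimethylarginine dimethylaminohydrolase family, had 4.93 CPM in both KO samples and 26.3 and 9.59 CPM in WT samples (−1.85, SE 0.57, edgeR adjusted p = 0.147). Against WT replicate 2 alone the value of Ddah2 was −0.95. Gucy1a3, a subunit of the nitric oxide receptor, had a value of −1.43 (edgeR adjusted p = 0.152), and of −1.55 against WT replicate 2 alone. Nos1, the neuronal synthase, had 2.21 and 2.23 CPM in KO samples and 49.5 and 4.20 CPM in WT samples (−3.58, SE 1.29, edgeR adjusted p = 0.184), so its value rests on WT replicate 1 and was −0.91 against WT replicate 2 alone. In the tetrahydrobiopterin list 0 of 6 tested genes passed and the median was −0.46 (−0.30 against WT replicate 2 alone). Pcbd2 and Spr, of the recycling and the last step of synthesis, had values of −0.83 and −0.65 (edgeR adjusted p = 0.113 and 0.152). Against WT replicate 2 alone these were −0.82 and −0.55.

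**Figure D4:**
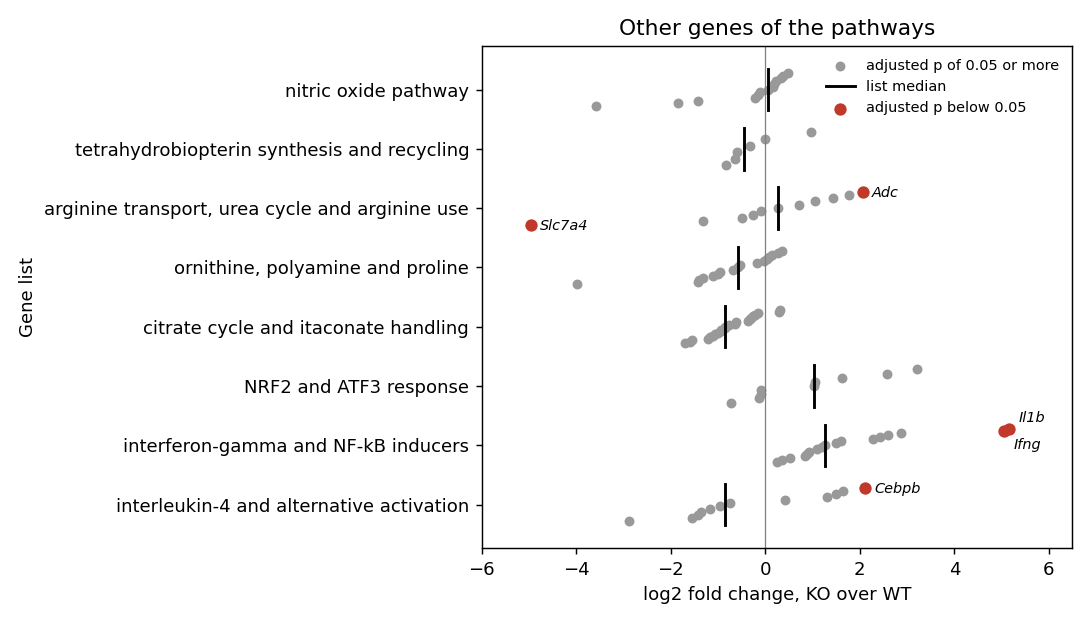
Log2 fold change, KO over WT, of the 108 tested genes of the 8 pathway lists; each point is a gene, red points passed an adjusted p of 0.05 and black bars are list medians. Il1b, Ifng, Cebpb and Adc are the 4 red points to the right and Slc7a4 the 1 to the left.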

How the data were processed

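Libraries were made from ribosome-depleted RNA with an Ion Torrent kit, per the labels' protocols. Gene read counts are whole numbers deposited by the authors, without scaling; all 38087 listed gene lengths match the genomic span. The authors deposited log2 values whose median over the 4 libraries is 0 for each gene (within 1e-05), and a table of 5511 genes with a log2 fold change and a p-value; that deposited p-value was not used here. The submitters' processing notes name mm10 and DESeq2 1.62, with no aligner or counter given in the sources used here. The other 8 columns of per-sample values were not used here.

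Tests used the quasi-likelihood method of edgeR 4.0.16 (R 4.3.3, TMM factors of 1.28, 1.30, 0.513 and 1.18 for KO replicates 1 and 2 and WT replicates 1 and 2, filterByExpr at 10 reads minimum and 15 in total), with Benjamini-Hochberg adjustment over 20695 genes. SEs are the fold change over the root of F. A count of 3 reads is 0.149 to 0.192 CPM; intervals cover counting error only. The fit was also run on counts simulated from KO mean levels for all 4 libraries. That check does not cover the make-up of WT replicate 1 or the gap between the WT libraries. Lists were matched by symbol; 115 of 115 pathway entries matched. Alternatives were DESeq2 1.42.0 and its size factors, library totals, no filter, a stricter filter (1 CPM in 2 libraries, 20 reads in all), limma-voom (limma 3.58.1), a replicate block and each library left out.

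The members and lists were chosen with earlier results of these data known. Named genes are the 8; Becn1; per pathway list the 3 with the smallest p and any that passed; the 2 nearest profiles per member; overlapping genes; and markers at 0. Spt1, Lyz2, Cd163, Marco, Siglec1, Itgax, Siglech, Cd209a, Krt18, Krt14, Epcam and Cdh1 were named after their values were seen. The same holds for Csf3r, Cxcr2, Ltf, Gclc, Nqo1, Gclm, Keap1, Atf3 and Hmox1. Some genes that the rule names are not reported here.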

Additional observations from a re-analysis of the deposited data

How the results depend on the processing

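Signs of the 8 log2 fold changes held under all 13 alternatives run for each gene, except Asl with library totals. Over them Nos2 ranged from 6.96 to 8.36, Irg1 from 6.51 to 8.43, Arg1 from −8.25 to −6.92, Ass1 from 1.22 to 2.0, Gch1 from 0.74 to 1.74, Arg2 from 0.82 to 1.97 and Slc7a2 from 0.29 to 2.24. Library totals moved the median of all genes to 0.60, and relative to it Nos2, Irg1, Arg1 and Asl had 7.22, 6.80, −7.52 and −0.40.

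Counts over all genes and pathway genes depended on the setting; the cause was not tested. Against 216 higher and 451 lower with edgeR, DESeq2 gave 1325 and 2430, no filter 542 and 1188, and library totals alone and the replicate block 0 each; at an unadjusted p under 0.05 library totals gave 1472 higher and 1505 lower, and the block 1866 and 2734. Leaving out 1 library gave 0 to 6887 higher and 0 to 6922 lower: 4573 and 4988 without WT replicate 1, 6887 and 6922 without WT replicate 2, and 0 each without either KO library (at an unadjusted p under 0.05, 732 and 1318 without KO replicate 1, 743 and 1342 without KO replicate 2). The lone sample is then assumed to vary like the other group. For pathway genes, against 4 higher and 1 lower, DESeq2 gave 13 and 13, library totals and the block 0 and 0, limma-voom 0 lower, no filter 2 lower, and leaving out 1 library 0 to 41 higher and 0 to 45 lower. At an unadjusted p under 0.05 the pathway genes numbered 12 higher and 4 lower with library totals, 18 and 13 with the block, and 20 and 16 with limma-voom. The numbers in the labels pair samples by name only: the deviations of KO and WT replicate 1 correlated at −0.108 over genes. The crossed block, chosen after seeing the data, called 202 higher and 643 lower genes, with 2 higher and 2 lower pathway genes. The 3 to 56 reads of Nos2 and Irg1 in WT samples limit the precision of their fold changes.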
